A study of Homo sapiens with 8 samples.

Results

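The S100 genes encode a family of small calcium-binding proteins, and 10 of them were followed across tumours with and without SMARCA4. The 10 were taken by symbol from the gene count tables, which list 59050 symbols, and are S100A2, S100A4, S100A6, S100A8, S100A9, S100A10, S100A11, S100A14, S100A16 and S100P. RNA was sequenced from 8 xenograft tumours grown from H2122 cells, a long-established line of human lung cancer. The parental group held 4 tumours whose genotype is given as WT, and the knockout group held 4 tumours given as SMARCA4 KO. SMARCA4 is an ATPase subunit of the SWI/SNF chromatin remodelling complexes. All 8 tumours had received vehicle, and genotype is the only condition by which the labels separate the groups. The sample titles also carry a leading number that is lower in all parental than in all knockout tumours. What it stands for is not given in the sources used here, so it cannot be told apart from genotype. The host strain and age, the agent that the vehicle belongs to, and whether the knockout line was 1 clone are not given in the sources used here. Nothing in the labels ties a tumour to its own animal, so the p-values measure the spread between these 8 samples, which may be partly technical.

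S100 proteins carry a pair of EF-hand calcium-binding loops and mostly work as dimers. Calcium opens a surface through which they bind target proteins inside the cell, such as annexins and cytoskeletal proteins, and several are also released and act on receptors such as RAGE and TLR4. Most of the genes lie in a cluster on chromosome 1q21, next to the genes of the epidermal differentiation complex, and many are expressed in epithelia and in myeloid cells.

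The libraries held 19785922 to 23191698 reads assigned to genes, which was 79.1% to 85.2% of the reads in each table. Levels are given in CPM, the counts of a gene as a share of its library's scaled total. SMARCA4 itself fell from 221 ± 16.03 CPM (SD, n = 4) in the parental tumours to 27.3 ± 3.90 CPM (n = 4) in the knockout tumours, and its ranges did not overlap. Of the 16219 genes with enough counts to test, edgeR's quasi-likelihood test called 4385 at a Benjamini-Hochberg adjusted p under 0.05, which is 27.0% of them. Of these, 2102 were higher and 2283 lower in the knockout tumours. The summed level of 9 epithelial and lung markers was 5757 to 6930 CPM in the parental and 4636 to 6238 CPM in the knockout tumours. Keratins, EPCAM and CDH1 made up nearly all of it, so the sum does not check the labelled lung origin. Of these markers 7 were tested, and 2 fell, KRT19 from a mean of 1060 to 526 CPM (edgeR adjusted p = 8.49e-05) and KRT7 from 1675 to 1024 CPM (edgeR adjusted p = 0.000333). Their part in the S100 values was not tested. NKX2-1, a transcription factor of the lung lineage, had 0 counts in all 8 libraries, and a count of 0 allows up to 3 counts in a library. The other lung markers of the list were also low. Parental and knockout means were 0.918 and 1.075 CPM for NAPSA and 0.198 and 0.225 CPM for SFTPB. In such bulk samples, fewer cells of a type and less RNA per cell cannot be told apart.

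All 10 S100 genes had enough counts to be tested, and 6 of them changed, against 27.0% of all genes. S100A8, S100A9, S100P and S100A6 rose in the knockout tumours, and S100A2 and S100A4 fell, beside 14.1% of all genes that fell. S100A10, S100A11, S100A14 and S100A16 did not pass the test. The 6 genes that changed were also the 6 whose ranges did not overlap between the groups, a separation seen in 29.3% of all genes tested. The median log2 fold change of the 10 genes was 0.16, and that of all genes tested was 0.00345. With upper-quartile scaling of the libraries, 4 of the 10 rose and 1 fell.

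**Figure D1:**
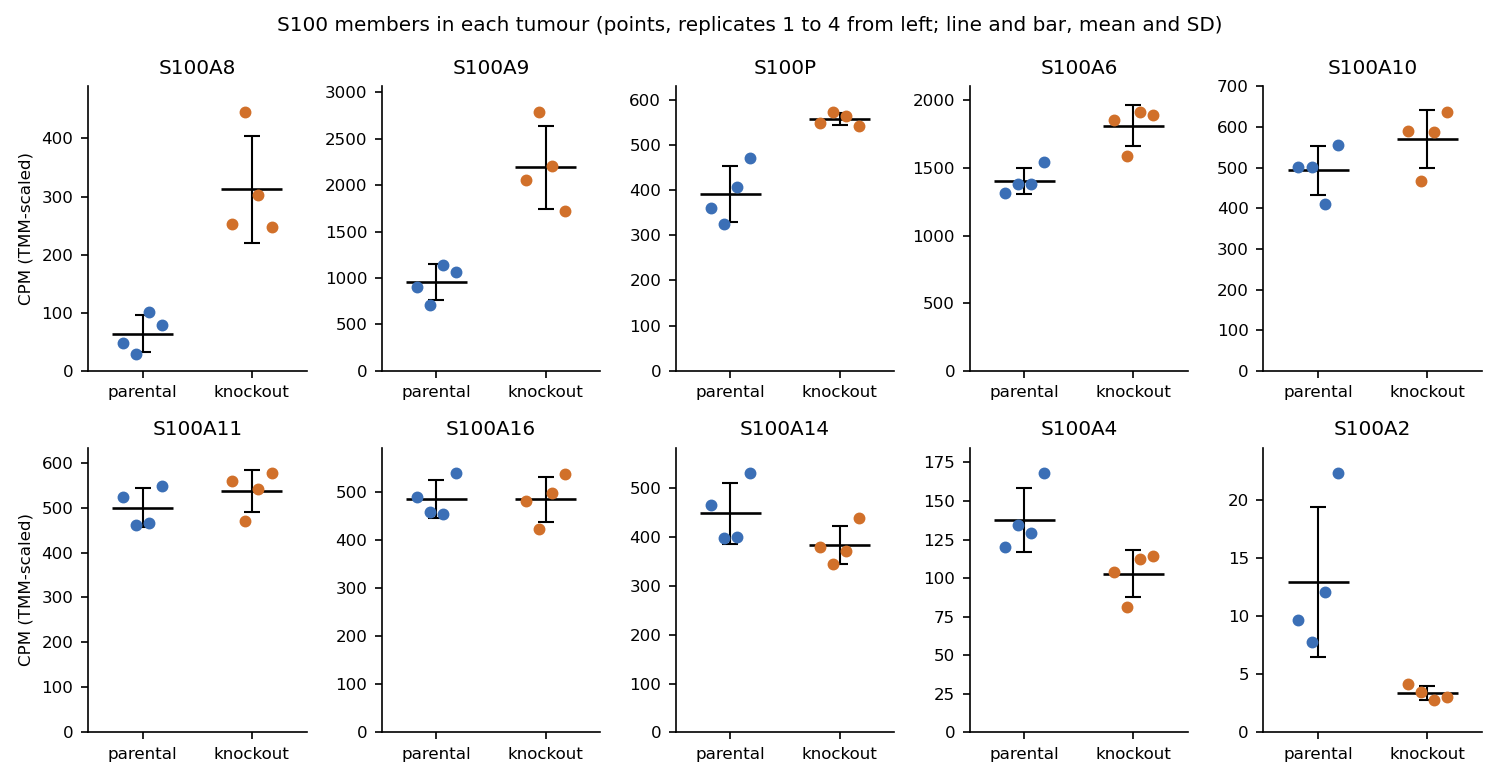
Level of each S100 gene in CPM (y axis, from 0, a scale of its own in each panel) in the 4 parental (blue) and 4 knockout (orange) tumours, with group mean and SD. The groups do not overlap in S100A8, S100A9, S100P, S100A6, S100A4 and S100A2, and they overlap in the other 4 panels.

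S100A8 and S100A9 are the subunits of calprotectin, a metal-binding protein abundant in neutrophils and made by stressed epithelia, and S100A12 is their neighbour and a further calgranulin. S100A8 stood at 47.7, 29.5, 101 and 78.4 CPM in parental tumours 1 to 4 and at 253, 446, 303 and 247 CPM in knockout tumours 1 to 4. The lowest knockout tumour was above the highest parental one, and within the parental group the values were widely spread. S100A8 rose by 2.28 on the log2 scale (SE 0.34, 95% interval 1.54 to 3.02), a 4.85-fold change, with an edgeR adjusted p of 0.000461. Only 2.58% of all genes tested had a larger absolute log2 fold change.

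S100A9 was at 904, 712, 1143 and 1064 CPM in the parental tumours and at 2058, 2787, 2206 and 1719 CPM in the knockout tumours. Knockout tumour 2 was the highest for both calprotectin genes and parental tumour 2 the lowest. The group means of S100A9 were 956 ± 191 CPM and 2192 ± 446 CPM (SD, n = 4 each). S100A9 rose 2.29-fold, or by 1.198 on the log2 scale (SE 0.17, 95% interval 0.82 to 1.57, edgeR adjusted p = 0.000369). S100A9 was also an abundant transcript, at place 41 of all genes tested by mean CPM.

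S100A12 was outside the 10 genes and far less abundant, at 0.621, 0.830, 1.30 and 0.978 CPM in the parental and 4.53, 7.51, 3.97 and 2.89 CPM in the knockout tumours. Its ranges did not overlap, and knockout tumour 2 was again the highest. It rose by 2.33 on the log2 scale (SE 0.33, edgeR adjusted p = 0.000346), resting on 81 parental and 398 knockout counts.

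Because these 3 neighbouring genes rose, the bases upstream of their annotated starts are shown here, 5′ to 3′ along the gene, from RefSeq's promoter table of GRCh38.p14, leaving out any base that GENCODE 29 places in an exon. The windows are chr1:153391189-153391438 on the minus strand for S100A8, chr1:153357604-153357853 on the plus strand for S100A9 and chr1:153375650-153375871 on the minus strand for S100A12. Capitals mark TATAAA, a core promoter element, in S100A9. In S100A12 they mark a match to TGANTCA, the binding motif of AP-1.
S100A8: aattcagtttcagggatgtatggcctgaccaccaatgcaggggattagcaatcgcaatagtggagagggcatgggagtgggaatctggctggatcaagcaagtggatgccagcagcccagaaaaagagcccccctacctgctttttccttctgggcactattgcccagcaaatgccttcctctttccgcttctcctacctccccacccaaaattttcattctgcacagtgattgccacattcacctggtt
S100A9: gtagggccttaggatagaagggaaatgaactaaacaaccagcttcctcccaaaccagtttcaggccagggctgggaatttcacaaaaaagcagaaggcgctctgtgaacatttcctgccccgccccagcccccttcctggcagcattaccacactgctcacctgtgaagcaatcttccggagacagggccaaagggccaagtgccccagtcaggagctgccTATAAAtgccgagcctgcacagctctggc
S100A12: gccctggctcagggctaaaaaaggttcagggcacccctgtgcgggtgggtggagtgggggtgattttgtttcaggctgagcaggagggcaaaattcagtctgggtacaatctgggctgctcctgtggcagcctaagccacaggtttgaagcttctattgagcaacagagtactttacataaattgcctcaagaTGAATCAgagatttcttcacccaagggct
The TATAAA of S100A9 ends close to the annotated start, 29 bases upstream at its first letter, and the AP-1 type match of S100A12 lies 57 bases upstream of the RefSeq start. RefSeq gives S100A8 3 overlapping windows, and the one shown, upstream of the outermost start, holds neither motif. The other 2 S100A8 windows hold TATAAA at a place that GENCODE 29 puts inside an exon, as do those of S100A4, S100P and S100A12. Read on both strands over 250 upstream bases, TATAAA was found for 4 of the 10 S100 genes, or in 5 of their 14 windows, and 10.8% of 34943 promoter windows in the table hold it. The TATAAA search was added after the sequences had been seen. TGANTCA was found for 1 of the 10, S100A2, in 1 of the 14 windows, against 6.59% of all windows. The motifs share no letters by overlap in the stretches shown, and a match is a description of the letters only.

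Within calprotectin, the transcript of S100A8 rose more than that of S100A9. Per kilobase of transcript, S100A8 stood at 7.27% ± 2.39 of S100A9 in the parental tumours (SD, n = 4, range 4.70 to 10.04) and at 15.99% ± 1.72 in the knockout tumours (n = 4, range 13.96 to 18.1). The ranges did not overlap, with an exact two-sided permutation p of 0.0286, the smallest that 4 against 4 tumours can give. After adjustment over the 3 transcript ratios compared, the p was 0.0286. Leaving out any 1 tumour kept the difference between 7.86 and 9.64 percentage points.

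Calgranulins are also classical neutrophil transcripts, so markers of blood cells are given beside them. Of 13 neutrophil markers, 2 had enough counts to test and 0 were called by edgeR, with 1 at an unadjusted p under 0.05, 1 called by DESeq2 and 0 by limma-voom. The defining markers were near 0, with 4 counts of MPO, 3 of ELANE, 3 of CEACAM8, 4 of FCGR3B and 2 of CAMP over all 8 libraries. The summed level of the 13 was 26.9, 40.8, 37.3 and 34.1 CPM in the parental tumours and 40.6, 32.2, 46.0 and 42.3 CPM in the knockout tumours. The groups overlapped, and parental tumour 2 was the highest of its group, while S100A8 was lowest there.

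Of 14 leukocyte and macrophage markers, 11 were tested and 0 were called by edgeR, with 1 at an unadjusted p under 0.05, 1 called by DESeq2 and 0 by limma-voom. Their sum was 42.3, 163, 142 and 39.8 CPM in the parental tumours and 66.4, 69.9, 58.9 and 40.6 CPM in the knockout tumours. With a per-tumour score of these markers in the fit, S100A8 and S100A9 were still called. The symbols are human, and whether reads of host cells were removed before counting is not given in the sources used here, so the part of host cells in these values was not tested.

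S100P, a secreted protein that binds ezrin and RAGE and is known from pancreatic and lung carcinomas, is encoded on chromosome 4 (GENCODE 29, chr4:6693069-6697170, plus strand), apart from the other 9 genes. It was at 361, 325, 407 and 470 CPM in the parental tumours and at 549, 573, 564 and 542 CPM in the knockout tumours. Every knockout tumour was above every parental one, and the knockout values were the more closely grouped, with an SD of 14.05 CPM against 62.5 CPM. S100P rose by 0.51 on the log2 scale (SE 0.11, 95% interval 0.27 to 0.75, edgeR adjusted p = 0.00530), a 1.43-fold change. Its target EZR, which encodes ezrin, a linker of actin to the membrane, was at 957 ± 70.6 CPM and 919 ± 72.8 CPM (SD, n = 4 each, log2 fold change −0.06, edgeR adjusted p = 0.682).

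S100A6, or calcyclin, a protein of proliferating cells that binds CACYBP and annexins, was at 1316, 1379, 1384 and 1543 CPM in the parental and 1858, 1588, 1915 and 1889 CPM in the knockout tumours. Knockout tumour 2 was the lowest of its group but still above all parental tumours. S100A6 rose by 0.37 on the log2 scale (SE 0.09, 95% interval 0.17 to 0.57, edgeR adjusted p = 0.0120), a 1.29-fold change, and 36.6% of all genes tested had a larger absolute change. By annotation, 23 bases of its exons, 2.37%, overlap the antisense gene BX470102.1, and strand use in counting is not given in the sources used here. CACYBP, which links S100A6 to ubiquitin ligases, had a log2 fold change of −0.09 (edgeR adjusted p = 0.722), and this value was 0.08 in 1 of the fits that leave out a tumour.

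S100A10 and S100A11 act chiefly as partners of annexins, the calcium-dependent membrane-binding proteins. S100A10 forms a tetramer with annexin A2 and is permanently in the open form that other members reach with calcium. It was at 502, 502, 411 and 557 CPM in the parental and 590, 468, 588 and 637 CPM in the knockout tumours, and the groups overlapped (log2 fold change 0.21, 95% interval −0.05 to 0.47, edgeR adjusted p = 0.219). S100A11, a partner of annexin A1 in keratinocytes and other epithelia, ran from 462 to 549 CPM and from 471 to 576 CPM (log2 fold change 0.10, 95% interval −0.11 to 0.31, edgeR adjusted p = 0.466). Of 545 stretches of 50 bases in the S100A11 transcripts, 12 also occur in AC006483.1, and the other 9 S100 genes share none with another gene.

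ANXA2 was at 2074 ± 196 CPM and 2016 ± 215 CPM (SD, n = 4 each), with a log2 fold change at −0.04 (edgeR adjusted p = 0.812) whose sign turned in 2 fits that leave out a tumour. ANXA1 rose from 308 ± 62.8 CPM to 441 ± 44.0 CPM (log2 fold change 0.52, edgeR adjusted p = 0.0180), with overlapping ranges. AHNAK, a giant scaffold protein held by the S100A10 and annexin A2 complex, had a log2 fold change of −0.23 (edgeR adjusted p = 0.506), and 0.08 in 1 of the fits that leave out a tumour.

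Set against their annexin within each tumour, both ratios differed between the groups. Per kilobase, S100A10 was 37.7% ± 1.73 of ANXA2 in the parental tumours (SD, n = 4, range 35.2 to 39.0) and 44.9% ± 1.20 in the knockout tumours (n = 4, range 43.8 to 46.6). S100A11 was 517% ± 66.0 of ANXA1 in the parental tumours (range 451 to 604) and 382% ± 8.31 in the knockout tumours (range 372 to 392). In both ratios the groups did not overlap, and the exact two-sided permutation p was 0.0286, also after adjustment over the 3 ratios. Such a ratio shows unequal change of its 2 transcripts and not which of them moved.

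**Figure D2:**
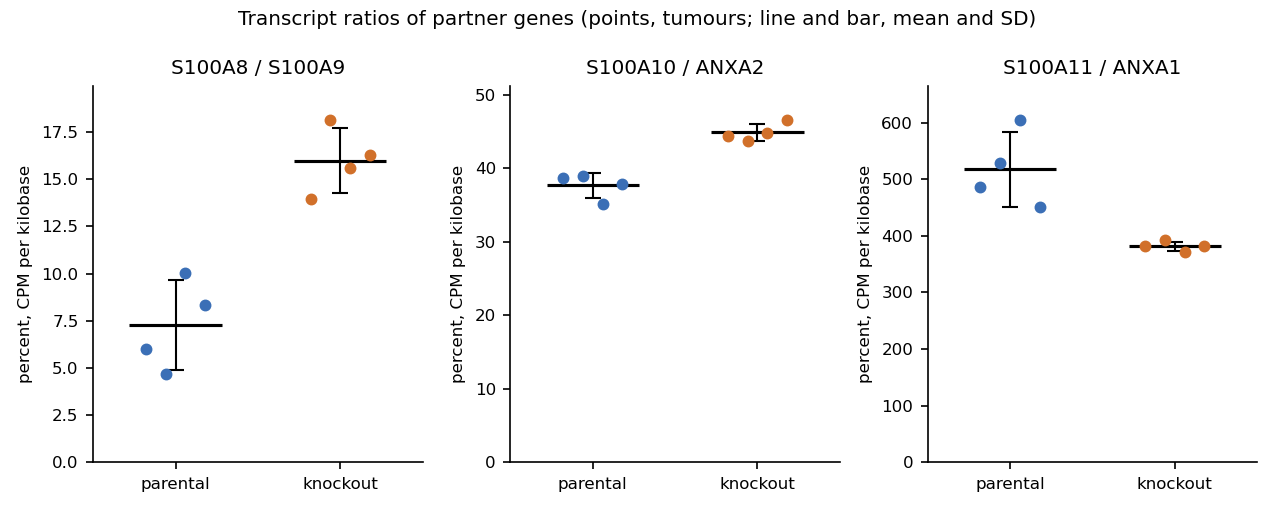
Transcript ratios within each tumour, as percent of CPM per kilobase (y axes, from 0), for S100A8 to S100A9, S100A10 to ANXA2 and S100A11 to ANXA1 in 4 parental and 4 knockout tumours, with mean and SD. The first 2 ratios were higher and the third lower in all 4 knockout tumours.

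S100A14 and S100A16 are epithelial members that lie side by side in the cluster and bind calcium weakly. S100A14 was at 466, 398, 401 and 530 CPM in the parental and 379, 345, 371 and 439 CPM in the knockout tumours. The groups overlapped, with a log2 fold change of −0.23 (95% interval −0.48 to 0.02, edgeR adjusted p = 0.171). With the leukocyte marker score in the fit it was called, at −0.25 (edgeR adjusted p = 0.0307). S100A16 ran from 456 to 539 CPM in the parental and from 423 to 538 CPM in the knockout tumours, with a log2 fold change of −0.0030 (95% interval −0.22 to 0.21, edgeR adjusted p = 0.987). These intervals leave room for changes of up to 0.48 and 0.22 on the log2 scale.

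S100A4, also called metastasin, binds non-muscle myosin and is known for promoting cell motility. It was at 120, 134, 129 and 168 CPM in the parental and 104, 81.4, 112 and 114 CPM in the knockout tumours. All knockout tumours were below all parental ones. Parental tumour 4 was the highest of its group and knockout tumour 2 the lowest of its group. S100A4 fell by 0.42 on the log2 scale (SE 0.13, 95% interval −0.71 to −0.13, edgeR adjusted p = 0.0342). The call was lost with upper-quartile scaling (adjusted p = 0.0527) and without parental tumour 4 (0.0740), knockout tumour 1 (0.0745) or knockout tumour 2 (0.0905). MYH9, which encodes the heavy chain of non-muscle myosin IIA, was at 849 ± 95.7 CPM and 798 ± 61.25 CPM (SD, n = 4 each, edgeR adjusted p = 0.555). S100A4 is also made by fibroblasts and leukocytes, and 10 fibroblast markers summed to 182 to 613 CPM in the parental and 346 to 608 CPM in the knockout tumours, with 1 of 6 tested called, as higher. Their part in the S100A4 values was not tested.

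S100A2 is a largely nuclear protein of basal epithelial cells, and its gene is a known target of p63. It was at 9.68, 7.76, 12.1 and 22.3 CPM in the parental and 4.21, 3.51, 2.80 and 3.08 CPM in the knockout tumours. The groups did not overlap, and parental tumour 4 was the highest. S100A2 fell by 1.93 on the log2 scale (SE 0.30, 95% interval −2.60 to −1.26, edgeR adjusted p = 0.000743), to 26.2% of its parental level. Of all genes tested, 3.60% had a larger absolute change. It was the lowest of the 10 genes, with 1141 parental and 288 knockout counts.

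S100A2 was the 1 gene of the 10 with an AP-1 type match upstream, and its window is printed for that reason, from chr1:153565866-153566094 on the minus strand (GRCh38.p14), without exon bases and with TGACTCA in capitals.
S100A2: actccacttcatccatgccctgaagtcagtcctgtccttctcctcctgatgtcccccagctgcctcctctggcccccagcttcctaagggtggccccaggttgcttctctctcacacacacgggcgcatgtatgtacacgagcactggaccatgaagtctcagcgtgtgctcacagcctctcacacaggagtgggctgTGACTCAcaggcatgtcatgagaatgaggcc
The match begins 52 bases upstream of the RefSeq start. A further RefSeq window of S100A2, which GENCODE 29 places inside an exon, holds none.

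TP63, the p63 transcription factor of basal and squamous epithelium, was at 10.8, 7.67, 13.9 and 17.6 CPM in the parental tumours and at 1.495, 1.80, 3.22 and 3.31 CPM in the knockout tumours. Its lowest and highest parental tumours were those of S100A2, while in the knockout group TP63 was lowest in tumour 1, where S100A2 was highest. TP63 fell by 2.34 on the log2 scale (edgeR adjusted p = 0.000213), and its part in the S100A2 values was not tested. Of 23 squamous markers, 17 were tested, 4 were higher (KRT14, KRT16, DSG3, SERPINB3) and 4 lower (TP63, KRT4, CSTA, KRT6B). Their sum was 3003 to 3908 CPM and 3020 to 4349 CPM, of which KRT17 alone had means of 1794 and 2171 CPM. LGALS7 and CALML3 were at 0 counts in all libraries. The counts leave out reads not uniquely aligned, so a count of 0 does not show absence. The part of squamous cells in the S100 values was not tested.

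**Figure D3:**
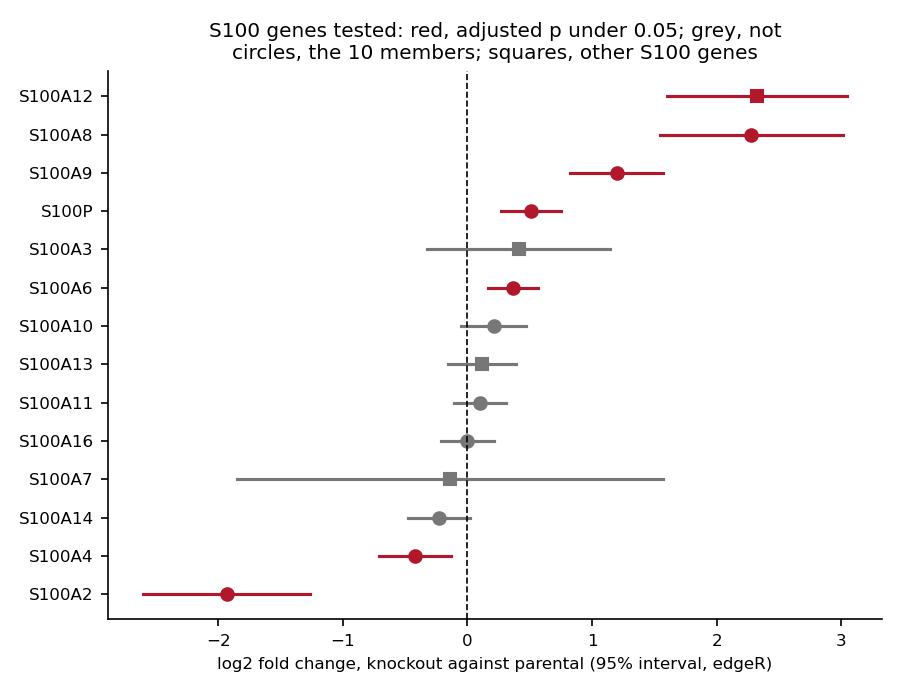
Log2 fold change, knockout against parental, with 95% interval (x axis) for the 10 S100 genes (circles) and the 4 other S100 genes tested (squares), where red marks an edgeR adjusted p under 0.05. S100A12, S100A8 and S100A9 lie farthest to the right and S100A2 farthest to the left.

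Levels between the genes were compared per kilobase of transcript. In the parental tumours the order was S100A6 at 2088 ± 144, S100A9 at 1656 ± 330, S100A11 at 841 ± 72.5, S100A10 at 542 ± 66.6, S100A16 at 469 ± 37.6, S100A14 at 420 ± 58.6, S100P at 306 ± 48.9, S100A4 at 242 ± 36.7, S100A8 at 126 ± 62.6 and S100A2 at 21.4 ± 10.7 CPM per kilobase (SD, n = 4). The ranges of neighbours overlapped for S100A6 and S100A9, S100A10 and S100A16, S100A16 and S100A14, and S100P and S100A4. In the knockout tumours S100A9 led at 3800 ± 773, ahead of S100A6 at 2693 ± 225 CPM per kilobase. S100A8 stood at 614 ± 181 CPM per kilobase there, between S100A10 and S100A16, with both of which it overlapped. S100A2 was last in both groups.

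Summed over the 10 genes, the level was 4895 ± 466 CPM in the parental tumours (SD, n = 4, range 4409 to 5520) and 6957 ± 225 CPM in the knockout tumours (n = 4, range 6704 to 7186). This was 0.489% and 0.696% of the scaled library. S100A9 made up 19.4% of the sum in the parental and 31.4% in the knockout tumours, S100A8 1.29% and 4.46%, and S100A6 28.8% and 26.1%. Without S100A8 and S100A9 the sum was 3875 ± 340 CPM (range 3665 to 4378) and 4452 ± 344 CPM (range 3953 to 4737), and the ranges overlapped. No p is given for a sum over chosen genes.

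**Figure D4:**
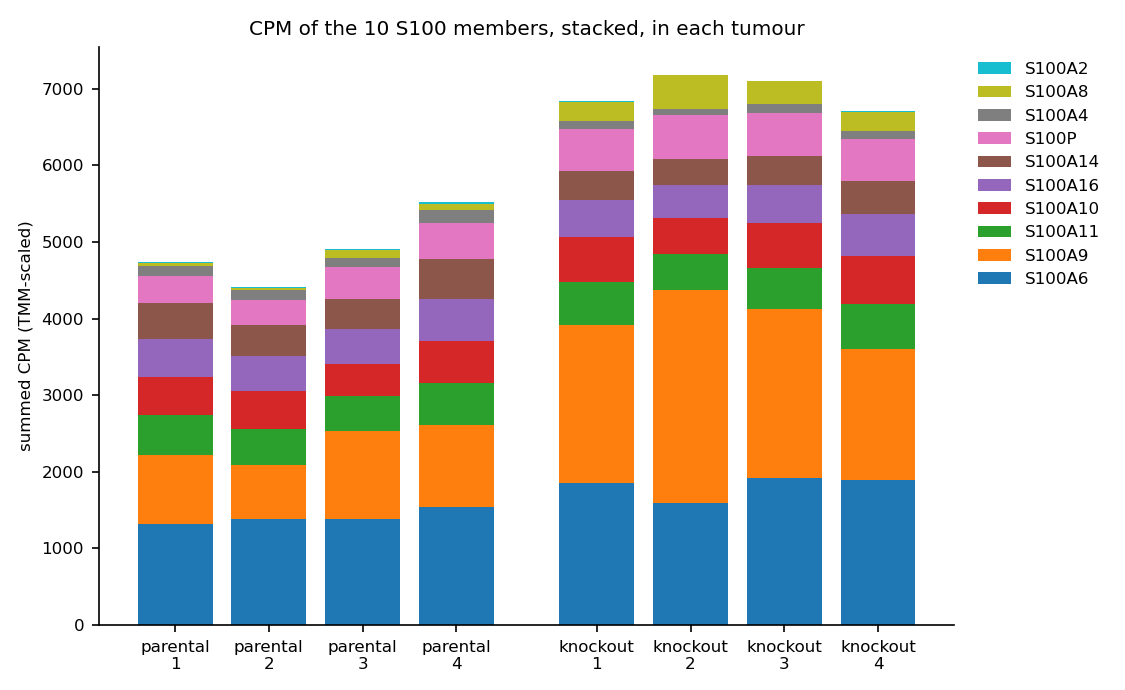
Summed CPM of the 10 S100 genes (y axis, from 0), stacked by gene, in each of the 8 tumours. All 4 knockout bars, 6704 to 7186 CPM, are above all 4 parental bars, 4409 to 5520 CPM, and S100A9 (orange) is the layer that grows most.

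Of 11 further S100 genes, 4 were tested and 1, S100A12, was called, as higher. S100A13, a protein that helps export growth factors lacking a signal peptide, was at 16.1 ± 2.31 CPM and 17.5 ± 1.56 CPM (SD, n = 4 each, edgeR adjusted p = 0.517). By annotation, 24.2% of the exon bases of S100A13 overlap AL162258.1 on the same strand, and 10.6% overlap S100A1 on the other strand. How reads in such overlaps were counted is not given in the sources used here. S100A3 had 59 and 78 counts per group and a log2 fold change of 0.41 (edgeR adjusted p = 0.398). S100A7, or psoriasin, an antimicrobial protein of squamous epithelia, was at 1.502, 0.684, 10.9 and 2.64 CPM in the parental and 4.53, 7.02, 2.24 and 0.607 CPM in the knockout tumours. Its groups overlapped widely (log2 fold change −0.14, edgeR adjusted p = 0.917), and without parental tumour 3 the value was 1.14.

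S100A7A, a close relative of S100A7, had 17 counts in the parental tumours, 12 of them in tumour 3, and 0 in the knockout tumours, with an exact two-sided permutation p of 0.143 (n = 4 each). S100B, a protein of glia and melanocytes, had 37 and 15 counts, a ratio of 0.410 with a 95% counting interval of 0.209 to 0.765, and 23 of the 37 came from parental tumour 2 (exact two-sided permutation p = 0.171, n = 4 each). S100A7L2 and S100G had 0 counts in all libraries, and S100A1, S100A5 and S100Z had at most 6 counts in a library. Counting intervals cover counting error only.

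Along chromosome 1 the 3 S100 genes with the largest rise among those tested lay side by side. Distances here are between the lower coordinates of the genes on GRCh38. That is the 5′ end of S100A9, on the plus strand, and the 3′ end of the others, on the minus strand. S100A9, S100A12 and S100A8 lie at 0, 15.9 and 32.2 kb. S100A7 follows at 99.9 kb, S100A6 at 177 kb, S100A4 at 186 kb, S100A3 at 189 kb, S100A2 at 203 kb, S100A16 at 249 kb, S100A14 at 256 kb and S100A13 at 261 kb. S100A6, which rose, S100A4, which fell, and S100A2, which fell, are thus near neighbours on the same strand. S100A10 and S100A11 lie apart from this run (chr1:151982915-151994390 and chr1:152032506-152047907, both minus strand).

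Of the 21 tested genes between and on each side of the cluster, 5 were called, or 23.8% against 27.0% of all genes, with a median log2 fold change of −0.09. The 3 that rose were LCE3E and LCE3D, cornified envelope genes of the epidermis, at 2.52 and 1.81 on the log2 scale, and FLG-AS1 at 1.59. FLG-AS1 lost its call without parental tumour 1, 2 or 3 or knockout tumour 3 or 4 (edgeR adjusted p from 0.0556 to 0.0933). The 2 that fell were PGLYRP3, a peptidoglycan recognition protein, at −1.57, and SPRR2A, a small proline-rich cornified envelope protein, at −1.14. PGLYRP3 lies at −60.0 kb and SPRR2A at −302 kb from S100A9. With upper-quartile scaling 4 rose and 1 fell, and with DESeq2 or with the leukocyte score 4 rose and 4 fell. Of the neighbours, 3 were called without parental tumour 3, knockout tumour 1 or knockout tumour 4 and 2 without knockout tumour 3. LCE3E and LCE3D were low, and LCE3E did not exceed 1.12 CPM in any tumour. Of 7 genes that carry an S100-type domain fused to a long repeat protein, such as filaggrin, 2 were tested and 0 were called by edgeR, DESeq2 or limma-voom, with 1 at an unadjusted p under 0.05 in each. Without parental tumour 1, 1 of them was called.

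**Figure D5:**
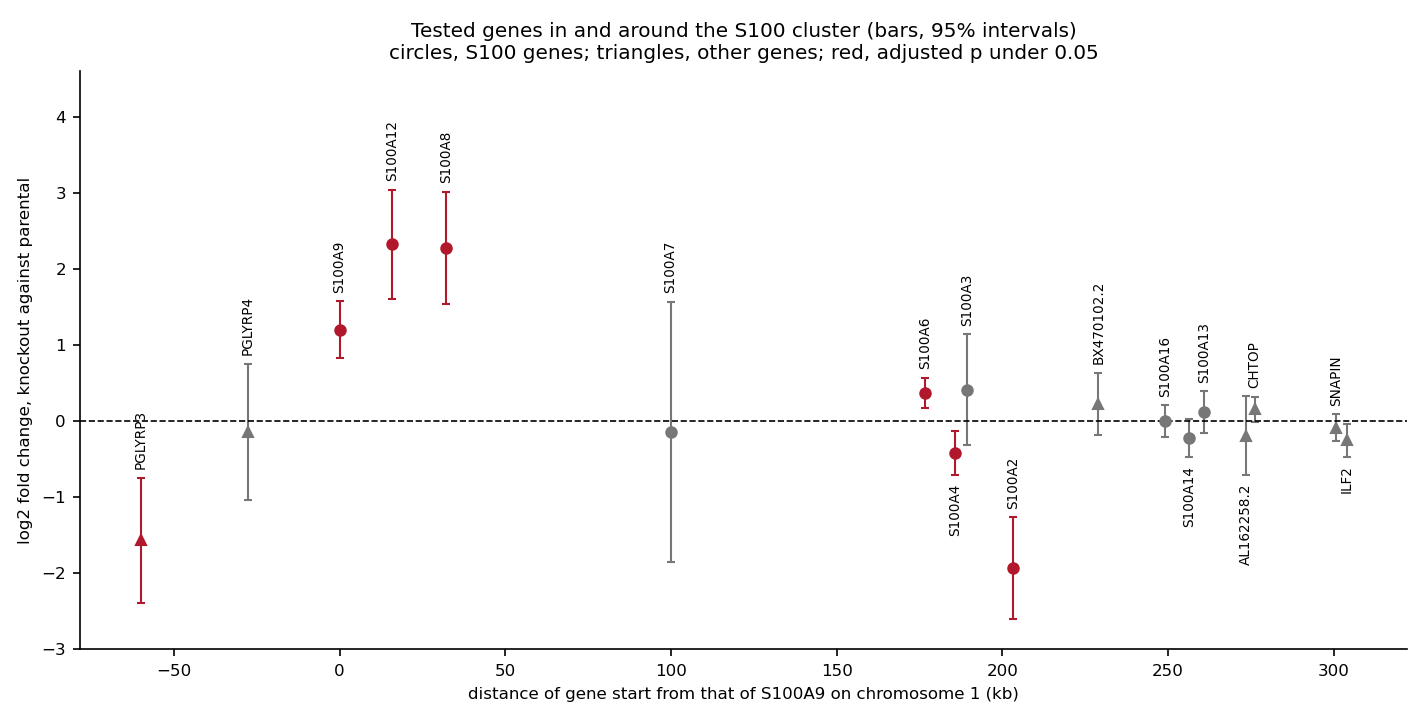
Log2 fold change with 95% interval (y axis) of tested genes against their distance from S100A9 in kilobases (x axis). The distance is between lower coordinates, which the axis calls gene start and which is the 3′ end of a minus-strand gene. Circles mark S100 genes, triangles others and red an edgeR adjusted p under 0.05. S100A9, S100A12 and S100A8 at 0, 15.9 and 32.2 kb are all above 0, and the S100 genes from S100A6 onward lie on both sides of 0.

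The list of proteins that S100 members bind or signal through held 26 genes with rows in the tables, of which 24 were tested. Of these, 4 rose and 6 fell, together 41.7% against 27.0% of all genes, with a median log2 fold change of −0.05. MDM2, a ubiquitin ligase that S100 proteins can bind, rose from 140 ± 22.5 CPM to 228 ± 24.3 CPM (SD, n = 4 each, log2 fold change 0.70, edgeR adjusted p = 0.0014), and PLAU, DYSF and ANXA1 rose as well. PLAT, the tissue plasminogen activator, which S100A10 binds at the cell surface, fell from 43.4 ± 15.3 CPM to 4.74 ± 1.12 CPM (log2 fold change −3.20, edgeR adjusted p = 1.16e-05). ANXA6, a membrane-binding annexin that S100A6 can bind, fell from 66.7 ± 18.2 CPM to 21.4 ± 1.45 CPM (log2 fold change −1.64, edgeR adjusted p = 4.63e-05). ALCAM and ANXA11 also fell.

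Among receptors of extracellular S100 proteins, LY96, the gene of a TLR4 co-receptor, fell, and CD14, that of another, did not pass the test. The genes of RAGE and basigin did not pass it either. CD14 was at 2.67 ± 2.48 CPM in the parental and 3.03 ± 0.563 CPM in the knockout tumours (SD, n = 4 each, log2 fold change 0.18, edgeR adjusted p = 0.861). AGER, which encodes RAGE, was at 2.45 ± 0.976 CPM and 2.43 ± 0.911 CPM (SD, n = 4 each, log2 fold change −0.01, edgeR adjusted p = 0.984), and its sign turned with upper-quartile scaling (0.02). BSG, or basigin, a reported S100A9 receptor, was at 432 ± 23.7 CPM and 433 ± 20.7 CPM (log2 fold change 0.0030, edgeR adjusted p = 0.984), with a small negative sign under several other scalings. LY96, the MD-2 co-receptor of TLR4, fell from 4.69 ± 0.597 CPM to 0.982 ± 0.215 CPM (log2 fold change −2.25, edgeR adjusted p = 2.1e-05). TLR4, the receptor of calprotectin in this pair, had too few counts to be tested, with 57 in the parental and 8 in the knockout tumours. Its ratio of levels was 0.142 (95% counting interval 0.0585 to 0.299), and the exact two-sided permutation p was 0.0286 (n = 4 each). The ranges of LY96 and TLR4 did not overlap, and leukocytes also express both genes. In parental tumours 1 to 4, LY96 was at 4.40, 4.35, 5.58 and 4.42 CPM and TLR4 at 0.259, 0.976, 0.983 and 0.425 CPM. The leukocyte markers were highest in parental tumours 2 and 3, as was TLR4. LY96 was highest in parental tumour 3, and in tumour 2 it was close to its values in tumours 1 and 4. With the leukocyte score in the fit, the log2 fold change of LY96 was −2.23 (edgeR adjusted p = 2.27e-05). The part of leukocytes in the LY96 and TLR4 values was not tested.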

How the data were processed

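RNA-seq of 8 tumours, 4 parental and 4 SMARCA4 knockout, was used as whole-number read counts per gene symbol, deposited by the authors as 1 table per tumour. The submitters' processing notes name TopHat2 2.1.1, HTSeq 0.11.0 and the build hg38, without their roles. The annotation, counting options, strand use and any removal of host reads are not given in the sources used here. Rows that name no gene were left out: reads without a feature were 6.08% to 10.4% of each table, ambiguous reads 3.98% to 4.31% and reads not uniquely aligned 4.52% to 8.11%.

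Genes were filtered with filterByExpr (minimum count 10, minimum total 15) and tested with edgeR 4.0.16 (quasi-likelihood F-test, TMM scaling, no covariate, Benjamini-Hochberg over all genes tested, called at an adjusted p under 0.05). CPM, counts scaled to a fixed total per library, is on TMM-scaled libraries, and CPM per kilobase divides by the median length of the principal protein-coding transcripts of GENCODE 29. SE and 95% intervals of log2 fold changes come from the F statistic. Single values were compared by exact two-sided permutation of 4 against 4 tumours. The fit was tested on simulated counts. No 2 libraries agreed within sampling noise, so all 8 were kept. The alternatives were 4 other scalings, DESeq2 1.42.0, limma-voom 3.58.1, 2 other filters, a replicate block, a leukocyte score as covariate, and leaving out each tumour.

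The S100 genes and all lists were chosen with earlier results of these data known. Named were SMARCA4, the 10 members, other S100 genes with 10 or more counts in any tumour, 10 fixed partner genes, up to 4 called genes with the smallest p in each other list, and any called or marker gene listed beside a count. Of the listed partners, 1 was not analysed here, and some values of listed genes are not reported here. PLAU, DYSF, ALCAM, ANXA11 and CD14 were named after their values were seen. Endothelial markers, of which 2 of 7 were tested and 1 was lower, summed to 7.35 to 18.04 CPM in the parental and 8.68 to 15.3 CPM in the knockout tumours.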

Additional observations from a re-analysis of the deposited data

Results flagged for a closer look

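Of 85 sets of 4 values from single genes and groups, 4 held a tumour far from the other 3 of its group, or 4.71%, where about 5% arise by chance. None of the 4 concerned one of the 10 S100 genes. S100B stood at 1.123 CPM in parental tumour 2, against 0.170 to 0.268 CPM in the other parental tumours. LY96 stood at 5.583 CPM in parental tumour 3, against 4.345 to 4.422 CPM in the others. EHD2, an EF-hand protein of caveolae, was low in parental tumour 3, at 16.48 CPM against 25.58 to 25.77 CPM. PGLYRP3 stood at 2.637 CPM in parental tumour 2, against 1.063 to 1.295 CPM in the others.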

How the results depend on the processing

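Of 47 results, 32 stayed the same in all alternatives run, among them S100A8, S100A9, S100P, S100A6, S100A2 and S100A12. For the fold change of a gene, this means that it kept its direction and its side of the threshold. A count of genes was held the same within a ratio of 1.5. The sum of the 10 genes and the transcript ratios were compared without a p-value. Between 5 and 7 of the 10 S100 genes were called in each alternative. S100A4, S100A14 and FLG-AS1 changed their call as given above. The number of all genes called was 3871 to 5252 on all tumours and 3501 to 4721 with 1 tumour left out. Counts of small lists moved more, and the cause was not tested: 2 further S100 genes were called without a filter, 1 S100-fused gene with upper-quartile scaling and 0 to 1 with a tumour left out, 6 to 13 other EF-hand genes with a tumour left out (6 without knockout tumour 3), and 8 neighbours on 1q21 with DESeq2, 8 with the leukocyte score and 2 to 6 with a tumour left out.

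Signs turned only for uncalled genes, whose 95% intervals in the main fit included 0. That of S100A7 was wide, at −1.85 to 1.57. S100A16 gave 0.0368 with upper-quartile scaling, 0.00502 with the CPM filter and −0.0533 to 0.0591 with a tumour left out. S100A7 gave 0.0831 with limma-voom, 0.0607 with the leukocyte score and −0.681 to 1.14 with a tumour left out. AGER gave 0.0247 with upper-quartile scaling, 0.0451 with the leukocyte score and −0.219 to 0.279 with a tumour left out. BSG gave −0.00488 (RLE scaling), −0.0154 (library totals), −0.00591 (without the 10 most abundant genes), −0.00484 (DESeq2), −0.0194 (no filter), −0.00634 (leukocyte score) and −0.0285 to 0.0377 with a tumour left out. Left-out tumours gave −0.0938 to 0.0345 for ANXA2, −0.363 to 0.0782 for AHNAK and −0.222 to 0.0784 for CACYBP.

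The labels do not say whether a shared replicate number pairs tumours. Deviations of same-numbered tumours correlated at −0.0431, −0.0217, −0.187 and 0.0863. Those of differently numbered tumours correlated at −0.183 to 0.252, so these values cannot decide the question. With the number as a replicate block, 3871 genes and 6 of the 10 S100 genes were called, 1 S100-fused gene was called, and S100A7 stood at 0.0709. Depth limits S100A7A, S100B and TLR4, which had too few counts for the test across genes.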

Other observations

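Outside the S100 family, 38 of 45 listed EF-hand and related calcium-binding genes were tested, and 7 rose and 5 fell in the knockout tumours, 31.6% against 27.0% of all genes, with a median log2 fold change of −0.08. The number that fell depended on the setting: 7 rose and 1 fell with upper-quartile scaling, 7 and 10 with DESeq2, 7 and 9 with the leukocyte score, and 5 and 1 without knockout tumour 3. CALB1, the calcium buffer calbindin, rose from 0.569 ± 0.238 CPM to 12.2 ± 5.86 CPM (SD, n = 4 each). This was 4.43 on the log2 scale (edgeR adjusted p = 1.9e-05) and rests on 48 parental counts. MYL9, a regulatory light chain of smooth muscle and non-muscle myosin, rose from 5.47 ± 1.48 CPM to 17.05 ± 4.79 CPM (log2 fold change 1.64, edgeR adjusted p = 0.000432). EHD2 rose from 23.4 ± 4.61 CPM to 41.25 ± 7.78 CPM (log2 fold change 0.82, edgeR adjusted p = 0.00439). CAPN1, the large subunit of the protease calpain 1, fell from 338 ± 17.9 CPM to 199 ± 7.67 CPM (log2 fold change −0.77, edgeR adjusted p = 3.38e-05).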
